A study of Homo sapiens with 4 samples.

Results

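The constitutive proteasome subunits are the genes named PSMA, PSMB, PSMC or PSMD that have a protein-coding RefSeq transcript in both deposited tables, without the interferon-inducible catalytic genes PSMB8, PSMB9 and PSMB10. They were taken by symbol, and 36 of the 27685 genes met the rule, of which 8 are PSMA, 8 PSMB, 6 PSMC and 14 PSMD genes. RNA was sequenced from HT-29 cells, a human colon cancer line with epithelial features, that carried a control vector or stably overexpressed TRIM40 with an N-terminal Myc tag (Myc-TRIM40), a tripartite motif ubiquitin ligase. Each condition has 2 libraries from 2 independent experiments, and each experiment holds 1 control vector and 1 Myc-TRIM40 library. The labels give the control vector cells as WT and list no treatment for either condition, and the methods of the study describe viral transduction followed by puromycin selection. The sources used here do not state whether a line was 1 clone.

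The proteasome degrades proteins that carry ubiquitin chains. Its 20S core is a barrel of stacked rings, in which the outer alpha rings gate the entry and the inner beta rings hold the catalytic sites. The 19S regulatory particle caps the barrel: its base contains a ring of ATPases that unfold substrates, and its lid removes ubiquitin. Interferon signalling replaces the catalytic beta subunits with immunoproteasome subunits, and most subunit genes are expressed in all tissues because the particle is needed by every cell.

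TRIM40 had 0 reads in both control vector libraries. Myc-TRIM40 cells had 272646 TRIM40 reads in experiment 1 and 110665 in experiment 2. Its level was 2086 and 827 FPKM, which is a count of reads divided by the length of the transcript and the size of the library. The libraries held 60954602 to 67424698 reads. Among markers of colon epithelium, EPCAM, CDH1, KRT8, KRT18, KRT20, VIL1 and LGALS4 were between 49.4 and 4435 FPKM, whereas CDX1 and CDH17 stayed between 0.221 and 0.433 FPKM and CDX2 between 1.22 and 1.39 FPKM. Of the markers of other cell types, COL1A2, COL3A1 and ALB had 0 reads, PTPRC had 0 to 4 reads, PECAM1 17 to 31 reads, and COL1A1 was at 0.297 to 0.945 FPKM. The control vector library of experiment 2 stood apart from the other three for the proteasome genes, as the values show, and results that rest on it are given beside those of experiment 1.

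Proteasome subunit transcripts were at almost equal levels in control vector and Myc-TRIM40 cells in experiment 1 and were mostly lower in Myc-TRIM40 cells in experiment 2. In experiment 1 the 34 members with a mean of at least 1 FPKM had log2 ratios of FPKM + 1 between -0.14 and 0.20, with a median of 0.01, which is also the median of the 11801 genes with a mean of at least 1 FPKM. In experiment 2 their median was -0.32, against 0.10 over the 11801 genes. On TPM, which sets the FPKM of each library to one common sum, the medians were -0.09 and 0.32. The latter is over the 12836 genes with a mean of at least 1 TPM. Short transcripts of all genes also had lower ratios in experiment 2, and with a trend on transcript length taken out the members' median was -0.10 and that of all genes -0.00. The 20S rings had the lowest medians, -0.46 for alpha and -0.53 for beta subunits, followed by the ATPases at -0.27 and the other 19S genes at -0.12. The 20S genes are also the shorter ones, with a median transcript length of 1050 bases against 1737 bases for the 19S genes, and with the length trend taken out the medians were -0.16 for each ring, -0.07 for the ATPases and -0.08 for the other 19S genes. With 1 library per condition in an experiment these ratios have no test, and the fit across both experiments called no member. In whole cultures, fewer cells of a kind and less RNA per cell cannot be told apart. The members left out of these counts were PSMA8, an alpha subunit of the testis, with 0 reads in every library, and PSMB11, a beta subunit of the thymus, with 3 reads in 1 Myc-TRIM40 library and 0 elsewhere.

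The alpha ring has 7 expressed genes, and all were highest in the control vector library of experiment 2. In the order of control vector and Myc-TRIM40 of experiment 1, then control vector and Myc-TRIM40 of experiment 2, which is kept from here on, PSMA7 stood at 409, 402, 552 and 386 FPKM, the most abundant transcript of the alpha ring in each library. PSMA4 was at 161, 159.9, 341 and 248 FPKM. PSMA1 was at 137, 141, 242 and 199 FPKM. For these genes the pair of experiment 1 differed by little, and the control vector library of experiment 2 was above both. PSMA2 had 107, 100.3, 195 and 131 FPKM. PSMA3 measured 89.6, 92.3, 192 and 132 FPKM, and PSMA3-AS1 overlaps it. PSMA6 measured 83.5, 80.1, 144 and 114 FPKM. In all 3 both libraries of experiment 2 were above both of experiment 1. PSMA5, the least abundant, measured 35.1, 40.5, 54.7 and 41.7 FPKM, and it was the member with the largest ratio in experiment 1, with a log2 ratio of 0.20, and lower in Myc-TRIM40 cells in experiment 2, with -0.38. PSMA2, at chr7:42956462-42971805 of hg19, had the lowest unadjusted p of the alpha ring. Its log2 fold change in edgeR's quasi-likelihood test was -0.41 (SE 0.234, 2 experiments, adjusted p = 0.888), from log2 ratios of -0.09 and -0.57, and its control vector and Myc-TRIM40 libraries overlapped.

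**Figure D1:**
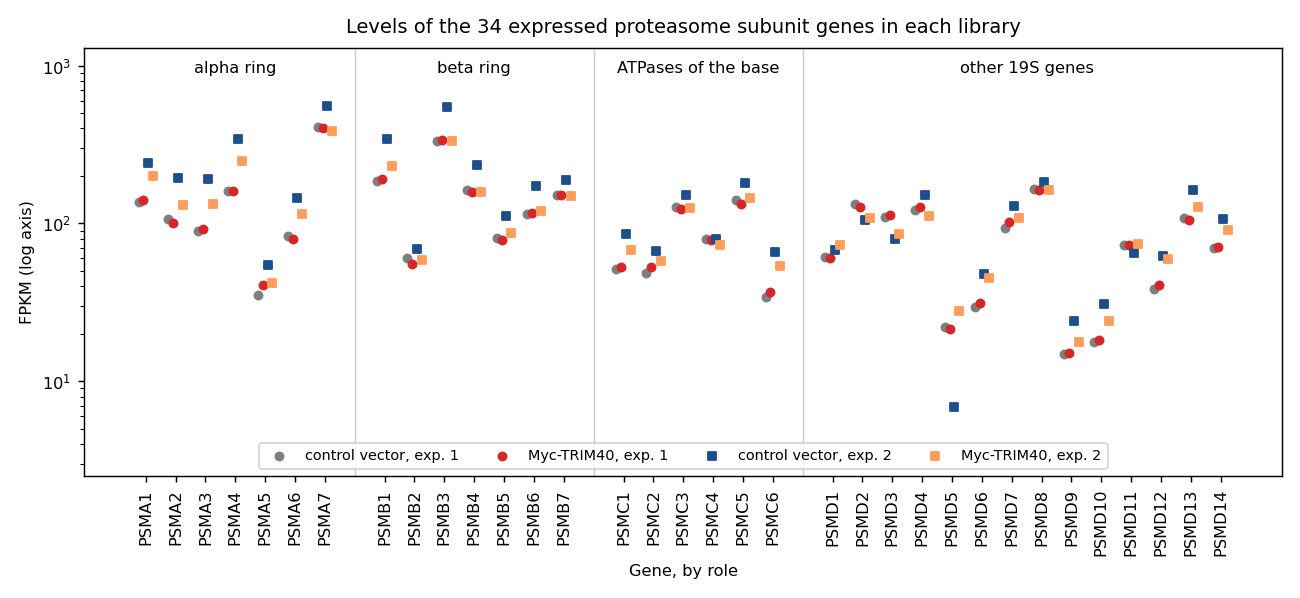
FPKM on a log axis for the 34 expressed subunit genes, grouped by role, with 1 point per library. The dark blue squares, the control vector library of experiment 2, lie above the other 3 libraries for 29 genes and far below them for PSMD5.

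Among the expressed members, the catalytic genes of the beta ring are PSMB5, PSMB6 and PSMB7, which carry the chymotrypsin-like, caspase-like and trypsin-like sites. PSMB5, at chr14:23495060-23504429 of hg19, was at 80.6, 78.0, 111 and 87.3 FPKM. PSMB6, at chr17:4699439-4701798, was at 115, 116, 172 and 119 FPKM. PSMB7, at chr9:127115744-127177752, measured 152, 152, 189 and 149 FPKM, and LOC100129034 overlaps it. The pair of experiment 1 was nearly equal for each, and the control vector library of experiment 2 was the highest for each. The edgeR log2 fold change was -0.35 for PSMB5 (SE 0.231, adjusted p = 0.888). It was -0.34 for PSMB6 (SE 0.243) and -0.25 for PSMB7 (SE 0.226), with the same edgeR adjusted p = 0.888. Control vector and Myc-TRIM40 levels overlapped for all 3 genes. PSMB5 was the only gene of the 3 without a dominant transcript, with 50.4% to 56.8% of its reads in the leading transcript. The same transcript led in every library for 34 of 34 members.

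The beta subunits PSMB1, PSMB2, PSMB3 and PSMB4 have no catalytic activity of their own. PSMB3, at chr17:36908966-36920484 of hg19, was at 333, 337, 548 and 334 FPKM, so that only the control vector library of experiment 2 differed from the rest. Its log2 ratio of -0.71 in experiment 2 was the lowest of all members, against 0.02 in experiment 1. In edgeR its log2 fold change was -0.43 (SE 0.250, adjusted p = 0.888), the lowest unadjusted p of the beta ring, and the conditions overlapped. PSMB1 stood at 186, 190.1, 340.2 and 229.7 FPKM. PSMB4 stood at 162, 159, 235 and 157 FPKM. PSMB2 stood at 60.6, 55.1, 69.0 and 58.9 FPKM, the lowest level of the ring. On FPKM, though not on TPM, both Myc-TRIM40 libraries were below both control vector libraries in PSMB4 and PSMB2, whereas PSMB1 overlapped. The leading PSMB2 transcript took 65.3% of the gene's reads in the control vector library of experiment 1 and 86.4% to 92.6% in the other libraries.

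PSMB3 is shown with the 250 bases before its transcription start, because it had the lowest ratio and is one of the members whose upstream sequence holds both motifs searched. The sequence is from RefSeq on GRCh38.p14 at chr17:38752491-38752740, plus strand, a different build from the hg19 positions of the files. Capitals mark TGACNNNGC, the core of the antioxidant response element bound by NRF1 and NRF2 (NFE2L1 and NFE2L2), and CCAAT, the box bound by NF-Y. In PSMB3 the TGACNNNGC match begins 104 bases before the start and the CCAAT matches 55 and 13 bases before it, and no 2 matches overlap.
PSMB3: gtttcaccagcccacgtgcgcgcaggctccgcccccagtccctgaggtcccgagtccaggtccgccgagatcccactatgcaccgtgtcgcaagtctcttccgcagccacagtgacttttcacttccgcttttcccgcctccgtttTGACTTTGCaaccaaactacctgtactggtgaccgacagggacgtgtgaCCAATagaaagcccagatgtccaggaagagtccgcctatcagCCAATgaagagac
Both strands were searched. Of the 36 members, 31 had a promoter in the table, and TGACNNNGC was in 5 of them (16.1%, PSMB3, PSMD3, PSMD5, PSMD9 and PSMD12), against 11.0% of 27305 promoters of the same length. CCAAT was in 15 of the 31 (48.4%), against 33.0% of all. These are matches of letters and say nothing of binding.

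The ATPases of the base, PSMC1 to PSMC6, form a ring that unfolds substrates and opens the gate of the core. PSMC5 stood at 139.7, 133, 180.3 and 145 FPKM, and FTSJ3 overlaps it. PSMC3 stood at 127, 124, 152 and 126 FPKM. PSMC4 stood at 79.4, 78.5, 79.8 and 72.9 FPKM, the narrowest range of the ring. PSMC3 and PSMC4 were lower in both Myc-TRIM40 libraries than in both control vector libraries, by small amounts, on FPKM but not on TPM. PSMC1 was at 51.1, 53.0, 85.5 and 68.0 FPKM. PSMC2 was at 48.8, 52.9, 66.9 and 57.7 FPKM. PSMC6 was at 33.98, 36.9, 65.4 and 53.9 FPKM. These 3 genes were slightly higher in Myc-TRIM40 cells in experiment 1 and lower in experiment 2. PSMC5, at chr17:61904770-61909387 of hg19, had the lowest unadjusted p of the ATPases, with a log2 fold change of -0.27 in edgeR (SE 0.218, adjusted p = 0.888), and its conditions overlapped. All 6 log2 ratios of experiment 2 were between -0.33 and -0.13.

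The remaining 19S genes differed most among themselves. PSMD1 and PSMD2, the large scaffolds of the base, were at 61.1, 60.0, 67.5 and 72.7 FPKM and at 134, 127, 105 and 109 FPKM. PSMD3, a lid subunit, measured 109, 113, 79.8 and 85.6 FPKM. PSMD11, another lid subunit, measured 73.2, 73.2, 65.3 and 73.5 FPKM. These genes were not highest in the control vector library of experiment 2, and all 4 had log2 ratios above 0 there, between 0.05 and 0.17. PSMD4, a ubiquitin receptor, was at 122, 127, 151 and 112 FPKM. PSMD14, the deubiquitinase of the lid, was at 70.0, 70.8, 107 and 90.6 FPKM. PSMD7, the partner of PSMD14, was at 93.7, 102, 129.6 and 108 FPKM. These 3 had the highest level in the control vector library of experiment 2. The lid subunits PSMD6, which PSMD6-AS2 overlaps, and PSMD12 were at 29.5, 31.4, 47.9 and 44.8 FPKM and at 38.5, 40.9, 62.1 and 59.2 FPKM. PSMD13 and PSMD8 measured 109, 104, 163 and 127.5 FPKM and 164, 162, 182 and 163.5 FPKM. In PSMD6 and PSMD12 the libraries split by experiment more than by condition. In PSMD8 both Myc-TRIM40 libraries were below both control vector libraries by a small amount, on FPKM but not on TPM. On FPKM 6.74% of genes did so.

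PSMD5, PSMD9 and PSMD10 encode chaperones that assemble the base and leave the finished particle. They are members by symbol. PSMD9 was at 14.9, 15.2, 24.1 and 17.8 FPKM. PSMD10 was at 17.6, 18.1, 30.7 and 24.2 FPKM. Both were lower in Myc-TRIM40 cells in experiment 2, with log2 ratios of -0.42 and -0.34. PSMD5, at chr9:123578332-123605299 of hg19, went the other way. It had 22.0, 21.4, 6.85 and 27.9 FPKM, from 4789, 4673, 1646 and 6233 reads, so that the control vector library of experiment 2 was low and the other 3 were between 21.4 and 27.9 FPKM. Its ratio of FPKM + 1 was 3.68 in experiment 2, a log2 ratio of 1.88, against a log2 ratio of -0.04 in experiment 1. The edgeR log2 fold change was 0.91 (SE 0.422, 2 experiments, adjusted p = 0.888). It rests on 1 library: without experiment 2 the log2 difference of scaled reads was -0.07, and control vector and Myc-TRIM40 levels overlapped. The leading transcript of PSMD5 held 85.0% of its reads in that control vector library and 97.2% to 100% in the others. PSMD5 is shown with the 250 bases before its start, as the one member far above the others in experiment 2, at chr9:120842923-120843172 of GRCh38.p14, minus strand, from RefSeq. The capitals mark TGACNNNGC, 134 bases before the start, and CCAAT was not found in this window.
PSMD5: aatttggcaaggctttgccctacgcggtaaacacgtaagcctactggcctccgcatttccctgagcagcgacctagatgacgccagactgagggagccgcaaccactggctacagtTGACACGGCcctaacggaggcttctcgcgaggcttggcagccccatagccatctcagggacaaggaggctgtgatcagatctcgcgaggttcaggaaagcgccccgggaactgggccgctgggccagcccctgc

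**Figure D2:**
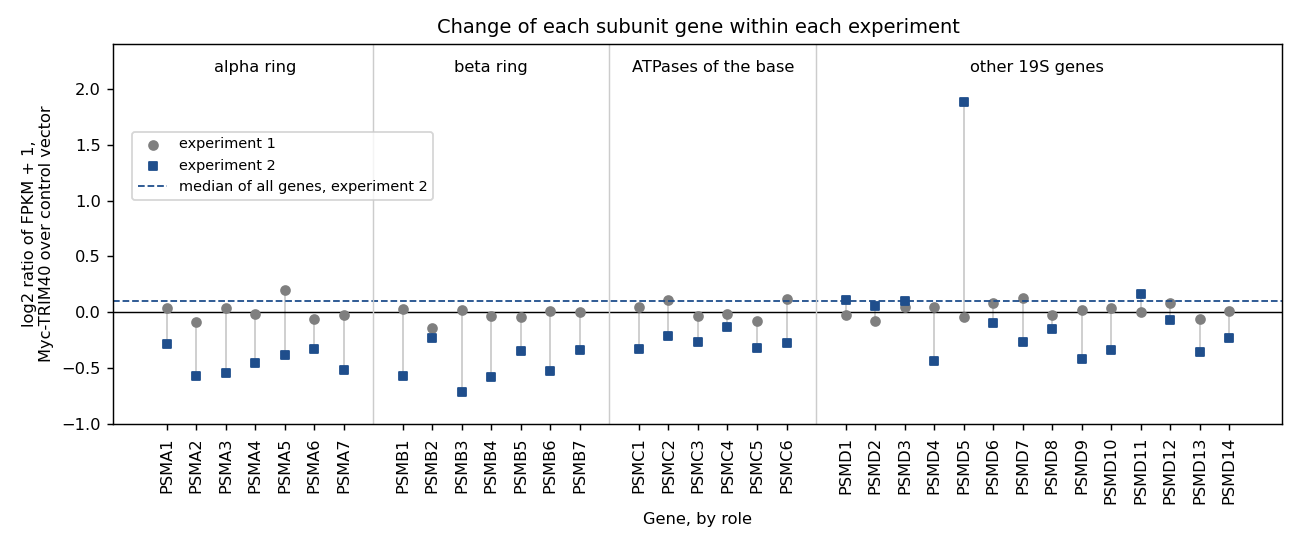
Log2 ratio of FPKM + 1, Myc-TRIM40 over control vector, for each gene in experiment 1 (grey circles) and experiment 2 (blue squares), with the median of all genes in experiment 2 dashed at 0.10. The circles lie between -0.14 and 0.20, and the squares lie below 0 for 29 of 34 genes, with PSMD5 alone near 1.88.

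The count test asked whether the difference between conditions was larger than a spread estimated from the gene's 2 experiments together with the other genes tested. edgeR called 0 of 34 members at an adjusted p under 0.05 and 0 at an unadjusted p under 0.05. Of the 14868 genes tested, 0.0605% were called and 4.54% had an unadjusted p under 0.05. DESeq2 also called 0 members and had 1 at an unadjusted p under 0.05, PSMD5, and limma on log2(FPKM + 1) had 0 of either. The 7 named members had standard errors of 0.218 to 0.422 beside log2 fold changes of -0.43 to 0.91, and differences of this size were not resolved with 2 experiments. An exact permutation test of a single gene in 2 against 2 libraries, with the pairing by experiment ignored, cannot go below p = 0.333.

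Directions were counted over the 34 expressed members with no test. In experiment 1, 16 members were below 0, against 46.7% of the 11801 genes. On TPM 8 were below 0. In experiment 2, 29 were below 0, against 39.5% of genes. Below 0 in both were 12 members, against 20.8% of genes, and above 0 in both was 1 member, PSMD3, against 34.6% of genes. The balance depended on the scaling, with 5 members below 0 and 9 above 0 in both experiments on TPM, and 20 below and 0 above on reads scaled by the TMM factors of edgeR. In experiment 1, 0 members were at least 1.5-fold lower (0.822% of genes) and 0 at least 1.5-fold higher (3.01% of genes). In experiment 2, 1 member, PSMB3, was at least 1.5-fold lower (3.42% of genes) and 1, PSMD5, at least 1.5-fold higher (10.7% of genes). The count of 1 lower member became 0 on TPM and 7 on TMM-scaled reads or centred on the median of all genes. Just outside the lower threshold were PSMB4, PSMA2 and PSMB1, with ratios of 0.671, 0.675 and 0.676. Both Myc-TRIM40 libraries were below both control vector libraries in 6 members, PSMA7, PSMB2, PSMB4, PSMC3, PSMC4 and PSMD8, against 6.74% of genes, and above both in 0 members, against 12.8% of genes. On TPM the first count was 0 and the second 1, PSMD1. All shares of genes in this paragraph are on FPKM, and none was counted on the other scalings. The scaling moved the median of all genes in experiment 2, which was 0.10 with FPKM and 0.00 with TMM-scaled reads over the 11801 genes. With TPM it was 0.32 over the 12836 genes with a mean of at least 1 TPM. The members' median stood below that of all genes each time, at -0.32 with FPKM, -0.44 with TMM-scaled reads and -0.09 with TPM.

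Summed over genes, the role groups were level between conditions in experiment 1. The chaperone genes PSMD5, PSMD9 and PSMD10 are counted among the other 19S genes. Alpha ring genes summed to 1022 FPKM in control vector and 1016 FPKM in Myc-TRIM40 cells. In experiment 2 the sums were 1720.2 and 1252 FPKM, a ratio of 0.728. The beta ring sums were 1089 and 1087 FPKM in experiment 1 and 1664 and 1136 FPKM in experiment 2, with a ratio of 0.683 in the latter. The Myc-TRIM40 sums lay nearer to experiment 1 than the control vector sums did. ATPase sums had ratios of 0.996 and 0.831 in experiments 1 and 2, and those of the other 19S genes 1.01 and 0.913.

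**Figure D3:**
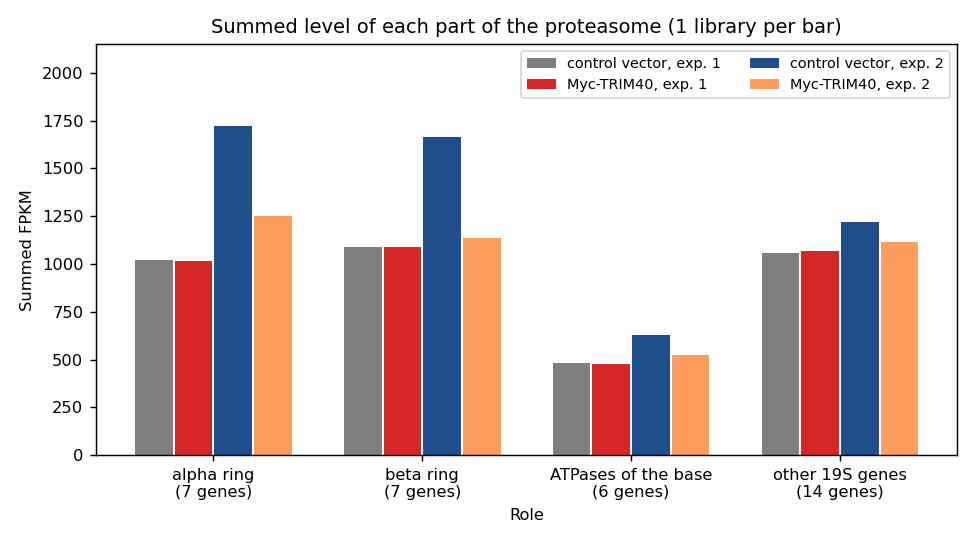
Summed FPKM of the expressed genes of each role in each library, with 1 library per bar and no error. In experiment 1 the bars of a role are level, and in experiment 2 the control vector bar is higher than the Myc-TRIM40 bar, at 1720.2 against 1252 FPKM for the alpha ring and 1664 against 1136 FPKM for the beta ring.

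The level of the control vector cells differed between experiments more than the conditions did within experiment 1. The control vector library of experiment 2 held the highest FPKM for 29 of 34 members, against 30.8% of genes. It was highest for 30 members on TMM-scaled reads, 20 on TPM and 21 with a trend on transcript length taken out. For these settings the share of genes was not counted. The median fold of experiment 2 over experiment 1 was 1.47 in control vector cells for the members and 0.972 for all genes. In Myc-TRIM40 cells it was 1.10 for the members and 1.00 for all genes. The order of the members by level was similar in all libraries, with Spearman's rho between 0.912 and 0.998 over 34 genes, highest between the libraries of experiment 1. These rho values are across genes, which are not independent replicates.

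Transcript length moved with the ratio in experiment 2. The members are short, from 793 to 4668 bases with a median of 1571 bases, against a median of 2825 bases for all genes, where length is the mean over a gene's transcripts weighted by their level. In experiment 2 the log2 ratio had a Spearman's rho with length of 0.745 over the 34 members and 0.688 over the 11801 genes, and in experiment 1 of 0.06 and 0.08. Genes of one library pair share its depth and base composition, so these are descriptions. All 5 members under 1000 bases, PSMA3, PSMB1, PSMB3, PSMB4 and PSMB6, were below 0 in experiment 2 with a median of -0.56, and the 1109 genes of that length had a median of -0.41. The 10 members of 1000 to 1500 bases had -0.34 against -0.31, and the 9 of 1500 to 2000 bases -0.27 against -0.15. The 3 members of 2000 to 3000 bases had -0.21 against 0.02. The 7 members of at least 3000 bases, PSMD5 among them, had 0.05 against 0.33. In each of these classes the members' median was below that of all genes of the same length.

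With a smooth trend on length taken out of each experiment, a step chosen after seeing the data, 27 of 34 members were below 0 in experiment 2. The median of all genes was then -0.00, and the share of all genes below 0 was not counted. PSMB3 was then at -0.26 and PSMA2 at -0.33. The lowest values were those of the long transcripts PSMA5, at -0.62, and PSMB2, at -0.56. PSMD5 stayed at 1.68. The part of transcript length in the lower ratios was not tested.

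**Figure D4:**
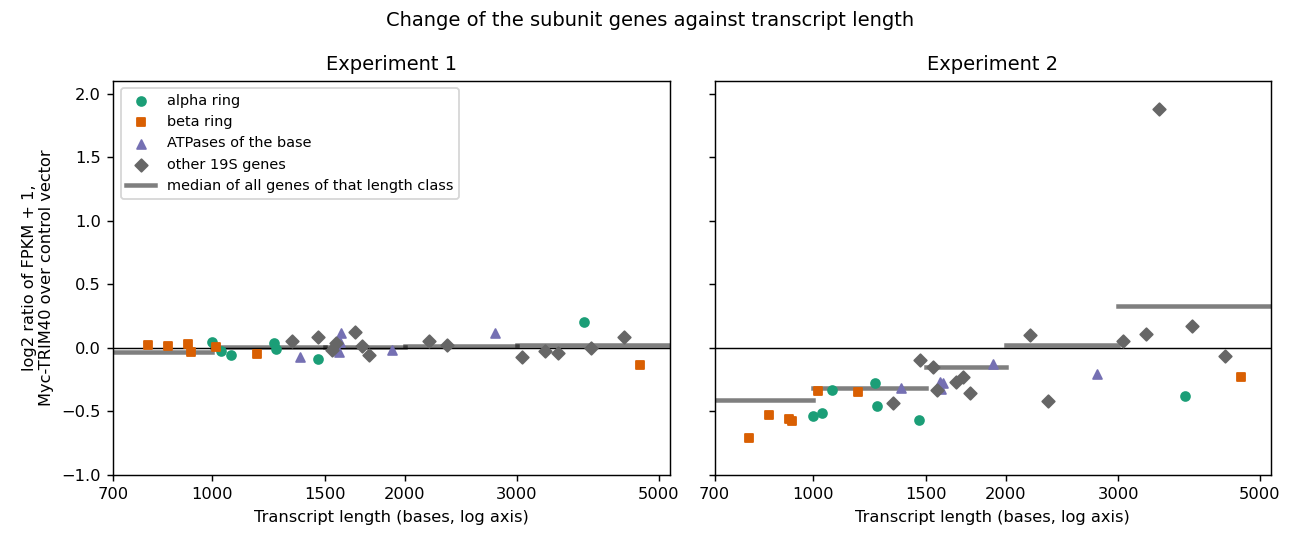
Log2 ratio of FPKM + 1 against transcript length on a log axis for the subunit genes, by role, with the median of all genes in each length class as grey bars. In experiment 1 members and bars stay near 0, and in experiment 2 the bars climb from -0.41 under 1000 bases to 0.33 from 3000 bases, with most members at or below them.

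The immunoproteasome subunits take the places of the catalytic beta subunits. PSMB8, the counterpart of PSMB5, was at 8.50, 33.0, 15.6 and 16.0 FPKM. PSMB9, the counterpart of PSMB6, was at 0.705, 8.54, 1.26 and 1.56 FPKM. PSMB10, the counterpart of PSMB7, was at 30.6, 37.8, 47.1 and 30.6 FPKM. PSMB8 and PSMB9 were highest in Myc-TRIM40 cells of experiment 1, while their constitutive counterparts were level there. As a percentage of the constitutive FPKM, PSMB8 stood at 10.6%, 42.3%, 14.0% and 18.3% of PSMB5. For PSMB9 the values were 0.614%, 7.36%, 0.730% and 1.31% of PSMB6. PSMB10 stayed between 20.2% and 25.0% of PSMB7. The edgeR log2 fold changes were 0.91 for PSMB8 (SE 0.432), 1.86 for PSMB9 (SE 0.713) and -0.24 for PSMB10 (SE 0.277), with edgeR adjusted p = 0.888, 0.888 and 0.901. PSMB8-AS1 overlaps PSMB8.

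**Figure D5:**
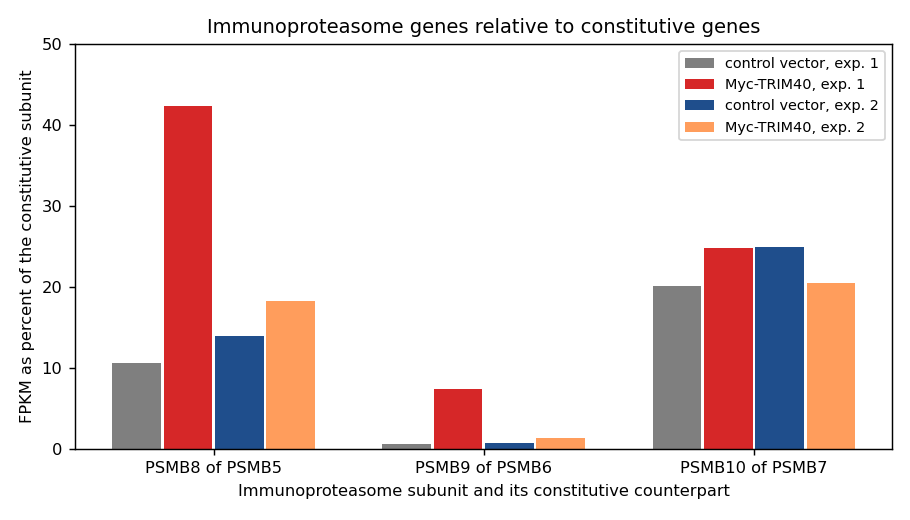
FPKM of each immunoproteasome gene as a percentage of its constitutive counterpart, 1 bar per library. PSMB8 reaches 42.3% of PSMB5 and PSMB9 7.36% of PSMB6 in Myc-TRIM40 cells of experiment 1, and PSMB10 stays between 20.2% and 25.0% of PSMB7.

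The other genes of the pathway formed a list of 37, all tested. edgeR called 0 of them, and 2 had an unadjusted p under 0.05, PSMB9 and the ubiquitin fusion gene RPS27A, the latter named after its values were seen, where 4.54% of all genes tested had one. RPS27A was at 654, 596, 1325 and 805 FPKM, with CLHC1 overlapping it, and had an edgeR log2 fold change of -0.51 (SE 0.219, adjusted p = 0.888). Below 0 were 16 of 37 in experiment 1, where 46.7% of all genes were, and 20 of 37 in experiment 2, where 39.5% were, with median log2 ratios of 0.02 and -0.07. The activator genes PSME1 and PSME2, interferon-inducible subunits of the 11S cap, were at 94.2, 139.6, 156 and 121 FPKM and at 90.5, 158, 185 and 149 FPKM. EMC9 overlaps PSME1. They were higher in Myc-TRIM40 cells in experiment 1, with log2 ratios of 0.56 and 0.80, and lower in experiment 2, with -0.36 and -0.31. POMP, the chaperone of 20S assembly, was at 109.6, 107, 257 and 174 FPKM, highest in the control vector library of experiment 2. All 6 assembly chaperones were below 0 in experiment 2, against 39.5% of genes, with a median of -0.49. Their transcripts are short, from 843 to 1605 bases, and the length classes that hold them had medians of -0.41 to -0.15 over all genes. The part of length was not tested here either. NFE2L1, a transcription factor of proteasome genes, was at 63.2, 69.7, 35.4 and 55.6 FPKM. It was lowest in the control vector library in which most subunits were highest. Its edgeR log2 fold change was 0.32 (SE 0.218, adjusted p = 0.888). NFE2L1 transcripts are long, at 4850 bases, and all genes of at least 3000 bases had a median log2 ratio of 0.33 in experiment 2. The part of length was not tested for NFE2L1. DDI2, the protease that activates NFE2L1, was named after its values were seen. It had 13.6, 12.2, 1.60 and 6.998 FPKM, with RSC1A1 overlapping it. Like PSMD5 it was lowest in the control vector library of experiment 2. The other genes listed for transcription and its processing, NFE2L2 and NGLY1, were instead highest in that library. They were at 39.0, 44.3, 45.2 and 44.9 FPKM and at 6.08, 5.80, 10.4 and 8.16 FPKM. The share of all genes lowest in that library was not counted. Of the 37 genes, 0 were past 1.5-fold the same way in both experiments.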

How the data were processed

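The 4 libraries came from HT-29 cells of 2 experiments, each with a control vector and a Myc-TRIM40 culture. Libraries were made with a stranded mRNA kit, and the submitters' processing notes name HISAT2 2.1.0, StringTie 1.3.4d and hg19 without further detail. The authors deposited read counts per RefSeq transcript, as whole numbers without normalization. The authors also deposited FPKM and, for experiment 2, TPM; TPM of experiment 1 was computed from the deposited FPKM. Transcripts, 63714 in all, were summed to 27685 genes. The control vector libraries summed to 60954602 (experiment 1) and 67424698 (experiment 2) reads, the Myc-TRIM40 libraries to 61025795 and 62582054. With 2 experiments, every fold change rests on a pair of differences.

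Counts were tested with edgeR 4.0.16 (glmQLFit and glmQLFTest, R 4.3.3) after filterByExpr had left 14868 genes, using TMM factors, Benjamini-Hochberg adjustment over all genes and the experiment as a block. Replicate numbers in the labels mark the experiments, each table holds 1 pair, and the deviations of paired libraries had a correlation of 0.563. Residual degrees of freedom were 1, and the median prior degrees of freedom, borrowed from the other genes, were 7.44. Ratios within an experiment used FPKM + 1 over genes whose mean FPKM reached 1. Alternatives used DESeq2 1.42.0, limma 3.58.1, other scalings, filters and transcript sets, and each library or experiment left out. The length trend was a lowess fit (statsmodels 0.14.6, fraction 0.3) on log2 length. Genes were counted as overlapping another gene with at least 10 reads in some library, which held for 4 expressed members; whether the counts used strand is not given in the sources used here. Scripts were tested on simulated counts.

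Statistics are given for PSMB5, PSMB6, PSMB7, the member with the lowest p in each role and any called member, and levels for every expressed member. Of the other pathway genes, PSMB8, PSMB9, PSMB10, PSME1, PSME2, POMP, NFE2L1 and any past 1.5-fold the same way in both experiments were to be named. The members and lists were chosen with earlier results of these data known.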

Additional observations from a re-analysis of the deposited data

How the results depend on the processing

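Every alternative of the count test called 0 members in either direction, with DESeq2 at 1 member and edgeR without the block and without the control library of experiment 1 at 1 higher (PSMD5) and 5 lower members at an unadjusted p under 0.05. Without the experiment block edgeR also called 0 members, with 0 at an unadjusted p under 0.05, and the log2 fold change of PSMD5 was 0.72 in place of 0.91. Leaving out a library was fitted without the block, since a block would leave no residual degree of freedom and the lone library of a condition was assumed to vary like the others. The adjusted p of PSMD5 ranged from 0.192 to 1.00 over the alternatives, and those of the other named members from 0.373 to 1.00. Without replicate 2 the log2 difference of PSMD5 was -0.0738, and without replicate 1 it was 1.91; the other 6 named members were at -0.125 (PSMA2) to -0.0166 (PSMB3) without replicate 2 and at -0.838 (PSMB3) to -0.438 (PSMC5) without replicate 1. Without the control library of experiment 2, the log2 fold changes of PSMA2, PSMB5 and PSMB6 turned to 0.10, 0.0047 and 0.019, those of PSMB3, PSMB7 and PSMC5 were -0.0026, -0.027 and -0.023, and that of PSMD5 was 0.15. The size of these differences rests on that library.

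On TPM, 8 members were below 0 in experiment 1, 5 below 0 in both, 9 above 0 in both and 0 at least 1.5-fold lower in experiment 2, with a median of -0.0875 there. Centred on the median of all genes, 0 were above 0 in both and 7 at least 1.5-fold lower in experiment 2. With reads scaled by TMM factors, 20 were below 0 in both, 0 above 0 in both and 7 at least 1.5-fold lower in experiment 2. With the length trend taken out, 4 were above 0 in both. In these, the cause was not tested. With only 1 experiment kept, 16 to 29 members were below 0, 5 to 18 above 0, 0 to 1 at least 1.5-fold lower and 0 to 1 at least 1.5-fold higher. Both Myc-TRIM40 libraries were below both control vector libraries in 0 members on TPM, 8 on TMM-scaled reads and 6 with the length trend taken out. The last 6 were PSMB2, PSMB4, PSMB5, PSMC3, PSMC5 and PSMD11. Of these only PSMB2, PSMB4 and PSMC3 were also among the 6 on FPKM. Both Myc-TRIM40 libraries were above both control vector libraries in 1 member on TPM. Shares of all genes were counted on FPKM only, so the counts under these alternatives have no share beside them.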
